A study of Arabidopsis thaliana with 20 samples.

Results

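Superoxide dismutases (SODs) and genes of the copper response were followed in inflorescences of Arabidopsis thaliana, the thale cress. They were 10 genes of the 37336 in the deposited table, chosen by name with RPKM values of these libraries already known: the iron SODs FSD1, FSD2 and FSD3, the copper/zinc SODs CSD1, CSD2 and CSD3, the manganese SOD MSD1, the copper chaperone CCS1, the transcription factor SPL7 and the copper transporter COPT2. The study measured RNA in wild-type Col-0 (WT), in plants overexpressing a DVL peptide gene and in plants mutated in several of them; DVL/RTFL genes encode small peptides that change organ shape when overexpressed. One overexpression line was dvl1-1D, a dominant line with raised DVL1, and the other, labelled 35S-.DVL8.2 and called 35S:DVL8 here, expresses DVL8 from the viral 35S promoter, which is active in most plant tissues, so the peptide gene is not limited there to the cells that normally use it. Both quintuple mutants carried dvl19, rtfl11, dvl11 and dvl8 mutations, 4 of the 5 in each; the fifth was dvl1 in the dvl1 quintuple and rtfl9 in the rtfl9 quintuple. The labels give no alleles and no plant age. Whole inflorescences were taken when their oldest flower opened, and the labels also speak of inflorescence apices and of flowers past opening. Each group had 3 libraries (n = 3), described as biological replicates. The labels name no treatment.

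Superoxide dismutases turn superoxide, a reactive by-product of photosynthesis and respiration, into hydrogen peroxide and oxygen, and they differ in the metal they need and in where they act. In Arabidopsis, iron and copper/zinc enzymes can stand in for each other: when copper is scarce, SPL7 is known to activate FSD1, copper uptake genes such as COPT2, and the microRNAs miR398 and miR408, and miR398 then lowers CSD1, CSD2 and CCS1. CCS1 hands copper to the copper/zinc enzymes. FSD2 and FSD3 belong to the plastid nucleoid, where they are counted among the proteins attached to the plastid RNA polymerase as PAP9 and PAP4.

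In RefSeq TAIR10.1, the iron enzymes lie at chr4:12884300-12887011 on the - strand (FSD1, AT4G25100), chr5:20773235-20775739 on the - strand (FSD2, AT5G51100) and chr5:7850444-7852534 on the + strand (FSD3, AT5G23310). The copper/zinc enzymes lie on + strands, at chr1:2827060-2829315 (CSD1, AT1G08830), chr2:12014412-12016569 (CSD2, AT2G28190) and chr5:5987187-5988885 (CSD3, AT5G18100). MSD1 (AT3G10920) lies at chr3:3417940-3419892 on the + strand and CCS1 (AT1G12520) at chr1:4267074-4268982 on the - strand. SPL7 (AT5G18830) lies at chr5:6275895-6280681 and COPT2 (AT3G46900) at chr3:17268700-17269510, both on the + strand.

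The miR398 sequences and the sites they pair with are shown because CSD1, CSD2 and CCS1, whose levels were lowest in 35S:DVL8, are known miR398 targets. MicroRNA levels themselves were not analysed here. Mature sequences were read from RefSeq TAIR10.1, with capitals marking the seed, bases 2 to 8. MIR398b and MIR398c give an identical mature sequence that differs from that of MIR398a outside the seed, and miR408 has another seed.
MIR398a (chr2:1041012-1041032, + strand): uGUGUUCUcaggucaccccuu
MIR398b (chr5:4691107-4691127, + strand) and MIR398c (chr5:4694778-4694798, + strand): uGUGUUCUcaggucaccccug
MIR408 (chr2:19319933-19319953, + strand): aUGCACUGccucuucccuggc

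The best complementary stretch was searched in RefSeq transcripts, with a penalty of 1 for a mismatch, 0.5 for a G:U pair and 2 for a bulged base. In the sites below, capitals mark the bases that pair with the microRNA, G:U pairs included. The CSD2 site had 3 such pairs and the CCS1 site 1. The CSD2 site also left 1 base of the microRNA seed unpaired, a bulge that its letters do not show. The CSD1 site lies in the 5′ UTR and spans an intron, and those of CSD2, CCS1 and ARPN (plantacyanin, a small copper protein) lie in coding sequence.
CSD1 with miR398b/c (chr1:2827177-2827685, + strand): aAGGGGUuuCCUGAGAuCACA
CSD2 with miR398b/c (chr2:12015572-12015591, + strand): UGcGGGUGACCUGGGAAACA
CCS1 with miR398b/c (chr1:4267521-4267541, - strand): auuGGGaGACCUGGGAACACu
ARPN with miR408 (chr2:827696-827716, - strand): cCaAGGGAAGAGGCAGUGCAU

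The CSD1 site had a penalty of 4, reached by 0.0318% of 31464 genes searched, and the CSD2 site one of 4.5, reached by 0.13%. The CCS1 site had 5.5, which 2% of genes reached, so the letters alone set it less apart. The miR408 site of ARPN had a penalty of 2, reached by 2 genes. Good sites also lay in targets not printed here. COX5B-1, of cytochrome oxidase, had one for miR398b/c at 4 (0.0318% of genes). The laccases LAC12 and LAC13 had miR408 sites at 3.5 (0.0286%), and LAC3 at 4 (0.0604%). In 35S:DVL8 and WT, COX5B-1 stood at 76.9 and 81.2 RPKM, LAC12 at 0.760 and 0.765, and LAC13 at 2.51 and 2.11. CSD3, FSD1, FSD2, FSD3, MSD1, SPL7 and COPT2 had best penalties of 6.5 to 8, which 15.2% to 82.9% of genes reached.

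SPL7 is known to bind GTAC. This motif, which reads alike on both strands, occurred in the 250 bases before the annotated start of 4 of the 10 genes (FSD1 once, CSD1 in 2 adjacent copies, CSD3 once, CCS1 once), against 34.3% of 27443 promoters. The FSD1 window is shown because FSD1 was the 1 gene of the 10 that rose in 35S:DVL8, with its GTAC, 145 bases before the start, in capitals.
FSD1 promoter (TAIR10.1, chr4:12887012-12887261, - strand): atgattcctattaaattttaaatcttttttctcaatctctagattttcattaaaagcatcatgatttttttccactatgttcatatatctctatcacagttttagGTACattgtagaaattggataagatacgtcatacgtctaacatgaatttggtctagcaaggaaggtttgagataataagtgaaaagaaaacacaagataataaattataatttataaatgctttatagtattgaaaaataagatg

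Reads assigned to genes ranged from 22471893 to 36589877 per library. The raised genes matched their labels: DVL1 stood at 525 to 612 RPKM (reads scaled to gene length and library depth) in dvl1-1D and had 0 reads in WT, and DVL8 stood at 152 to 173 RPKM in 35S:DVL8 against 0.0386 to 0.0616 in WT. In the mutants, DVL1 and DVL8 check little, being near 0 in WT already; DVL11 was at 1.74 to 2.49 RPKM in WT, 1.84 to 2.24 in the dvl1 quintuple and 0.992 to 1.46 in the rtfl9 quintuple. All 8 markers of inflorescence and flower were above 0 in every library. So were all 8 of mature pollen, 8 of tapetum (the nursing layer of the anther) and 6 of green tissue, so the samples held RNA of all these tissues. In such whole-tissue RNA, fewer cells of a type and less RNA per cell cannot be told apart.

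The 10 genes all passed the filter on low values, which asked for 1 RPKM in at least 3 libraries. Their levels per length differed widely: FSD1, CSD2, CSD1 and MSD1 ranged from 92.9 to 523 RPKM over the 15 libraries, FSD3, CCS1, FSD2 and SPL7 from 18.8 to 69.1, CSD3 from 5.63 to 11.4 and COPT2 from 1.72 to 4.96. The ratio of the highest to the lowest group mean was 1.92 for CSD1, 1.9 for FSD1, 1.71 for CSD2, 1.67 for COPT2, 1.45 for CCS1 and 1.41 for FSD3, and only 1.06 for SPL7 and 1.04 for MSD1. The genes were chosen with results of these libraries known. Their adjusted p-values, from limma over all 20223 tested genes, are therefore given to place each gene in the whole table and are not independent evidence.

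**Figure D1:**
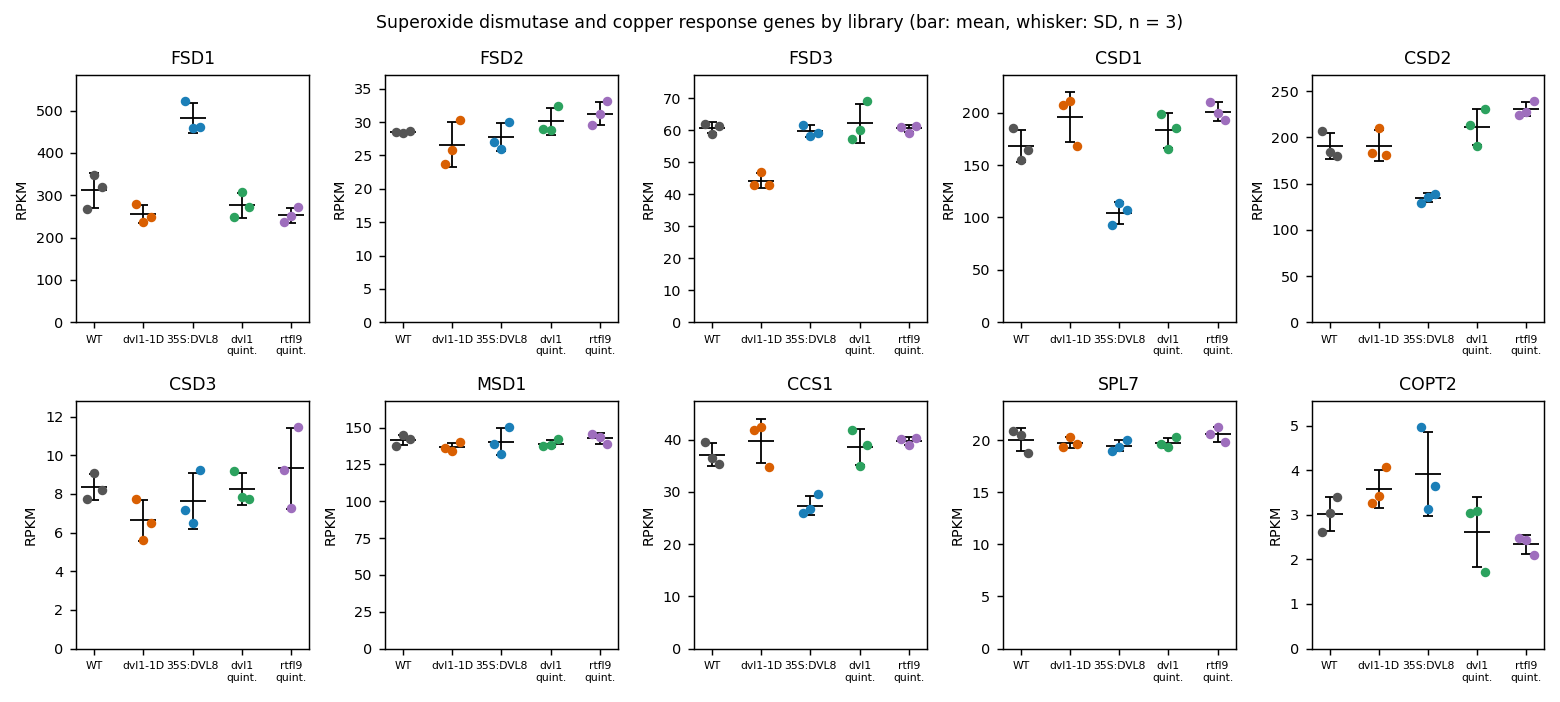
RPKM of each of the 10 genes (vertical axes start at 0) in the 15 libraries, by group; points are libraries, long bars the mean and whiskers the SD (n = 3). FSD1 is highest and CSD1, CSD2 and CCS1 are lowest in 35S:DVL8, and FSD3 is lowest in dvl1-1D.

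In 35S:DVL8, FSD1 rose while CSD1 and CSD2 fell. FSD1, an iron SOD of the cytosol and chloroplast, measured 523, 459.9 and 462 RPKM in 35S:DVL8 against 267, 348 and 319 in WT. Every 35S:DVL8 library thus lay above every WT library, and above the 12 libraries of all other groups, which ended at 348. The means were 482 ± 35.5 and 311 ± 41.0 RPKM (SD, n = 3), a ratio of 1.55 and a log2 fold change of 0.63 ± 0.10 (SE, adjusted p = 0.0267).

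CSD1, the cytosolic copper/zinc enzyme, measured 92.9, 113 and 107 RPKM in 35S:DVL8 and 185, 155 and 164 in WT. Its log2 fold change was -0.68 ± 0.10 (adjusted p = 0.0122), from 168 ± 15.3 to 104 ± 10.5 RPKM. CSD2, the plastid copper/zinc enzyme, measured 129, 136 and 139 RPKM against 207, 184 and 180.4, a log2 fold change of -0.50 ± 0.07 (adjusted p = 0.0169). In both genes the 3 libraries of 35S:DVL8 were the lowest of all 15. The other groups began at 155 RPKM for CSD1 and at 180.4 RPKM for CSD2.

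CCS1, the chaperone of these enzymes, measured 25.9, 26.8 and 29.5 RPKM in 35S:DVL8 and 39.5, 36.4 and 35.3 in WT. These libraries too lay below the 12 others, which began at 34.8 RPKM, but the difference of -0.42 ± 0.08 did not pass (adjusted p = 0.0539). CCS1 passed in 3 of 15 alternatives (median-of-ratios scaling, array weights, and limma-voom on recovered reads, at 0.0455, 0.0277 and 0.0277).

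Of all tested genes, 28 (0.138%) passed in 35S:DVL8 against WT, 12 of them higher (0.0593%) and 16 lower (0.0791%). FSD1, CSD1 and CSD2 made up 3 of these, at places 15, 10 and 12 by p. Libraries did not overlap between the groups for FSD1, CSD1, CSD2 and CCS1, as for 16.4% of all tested genes. Since the genes were picked with such results known, nothing is read from these shares.

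With 3 libraries in a group, calls were lost when some single libraries were left out. This was also so where the change itself was no smaller, as for FSD1 (0.65) and CSD1 (-0.70) without WT replicate 3. FSD1 did not pass without WT replicate 1 (adjusted p = 0.108), WT replicate 3 (0.109) or 35S:DVL8 replicate 3 (0.073), with no filter on low values (0.0612) or with only the libraries compared (0.0813). CSD1 did not pass without WT replicate 1 (0.0771), WT replicate 3 (0.0521) or 35S:DVL8 replicate 3 (0.0617), nor did CSD2 without WT replicate 1 (0.0939), WT replicate 2 (0.0602) or 35S:DVL8 replicate 3 (0.0617). The log2 fold changes kept their sign throughout, between 0.53 and 0.72 for FSD1, -0.74 and -0.60 for CSD1, and -0.54 and -0.44 for CSD2.

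Summed markers of pollen and tapetum lay apart between these groups, though no single marker passed by limma. The summed level of the 8 pollen markers was 306 to 430 RPKM in 35S:DVL8 and 443.5 to 492 in WT, and that of the 8 tapetum markers was 696 to 867 against 610.1 to 684. The tapetum sum turned on GRP17, a pollen coat protein (586 ± 83.3 against 455 ± 42.2 RPKM, adjusted p = 0.154). Without it the other 7 summed to 173 to 189.5 RPKM against 167 to 201, and so overlapped. Of the 8 tapetum markers, 5 had a positive and 3 a negative sign, with a median log2 fold change of 0.035. Of the 7 pollen and 8 tapetum markers tested none passed by limma, with 4 and 1 at an unadjusted p under 0.05, and 3 pollen markers (ANX2, BUPS1 and TIP5;1) were lower by limma-voom and with array weights. Green tissue markers overlapped, at 16560 to 19070 RPKM against 16250 to 18020. The part of pollen and of GRP17 in the changes of FSD1, CSD1 and CSD2 was not tested.

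The summed RPKM of the 7 SOD genes lay within 818 to 980 over all libraries, and both its level and its make-up differed between groups. It was 931 to 980 in 35S:DVL8, above the 896 to 929 of WT, and 818 to 881 in dvl1-1D, below WT. The dvl1 quintuple (893 to 941) and the rtfl9 quintuple (918 to 949) overlapped with WT. FSD1 made up 48.3% to 53.3% of the sum in 35S:DVL8 and 29.8% to 37.5% in WT. Its share was 25.8% to 28.6% in the rtfl9 quintuple, 27.8% to 34.2% in the dvl1 quintuple and 27.2% to 31.8% in dvl1-1D. The 3 copper/zinc enzymes together made up 23.4% to 27.4% in 35S:DVL8 and 37.5% to 49.0% in the 12 other libraries, and MSD1 14.2% to 17.1% everywhere.

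**Figure D2:**
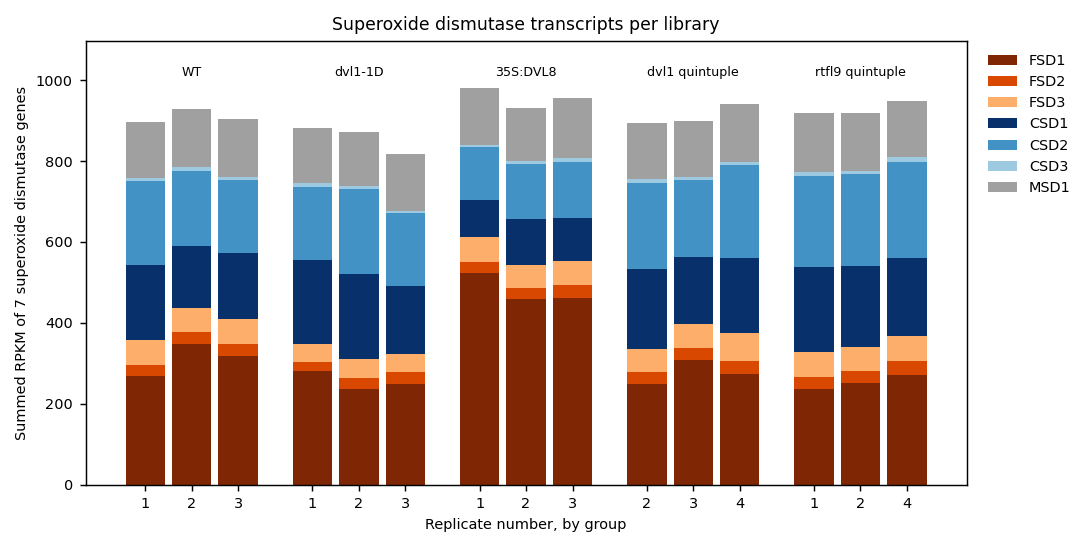
Summed RPKM of the 7 superoxide dismutase genes (vertical axis) in each library, by replicate number and group; colours are genes, iron enzymes in browns, copper/zinc enzymes in blues, MSD1 in grey. The totals run from 818 to 980 RPKM, highest against WT in 35S:DVL8 (931 to 980, WT 896 to 929) and lowest in dvl1-1D (818 to 881). The FSD1 share is 48.3% to 53.3% in 35S:DVL8.

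The ratio of FSD1 to CSD1 plus CSD2 was 2.35, 1.85 and 1.88 in the 35S:DVL8 libraries. It was 0.681, 1.03 and 0.925 in WT, and 0.545 to 1.03 over the 12 libraries outside 35S:DVL8, so the ranges lay apart. Within WT, 35S:DVL8 and the dvl1 quintuple, the library with the most FSD1 also had the least CSD1 plus CSD2, and in dvl1-1D and the rtfl9 quintuple it did not.

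**Figure D3:**
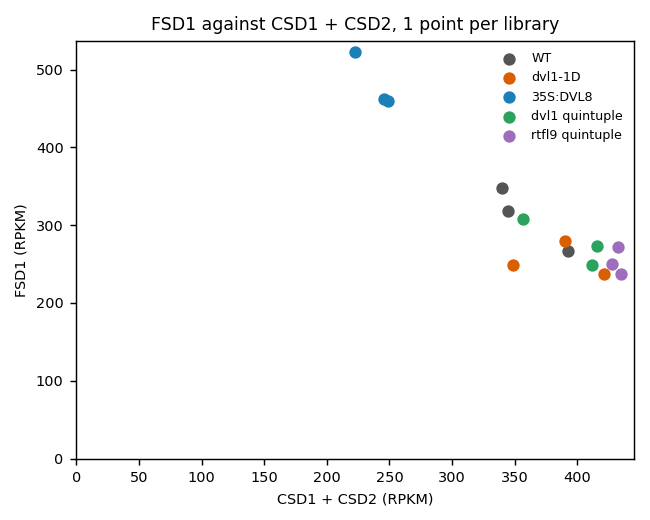
FSD1 (RPKM, vertical axis) against the sum of CSD1 and CSD2 (RPKM, horizontal axis), 1 point per library, coloured by group, both axes from 0. The 35S:DVL8 libraries sit at the upper left, with FSD1 of 459.9 to 523 and a sum of 222 to 249 RPKM.

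Other genes of copper deficiency and uptake were read from a list of 20, of which 13 were in the table and 9 passed the filter. None passed in 35S:DVL8 by limma or limma-voom, and 2 had an unadjusted p under 0.05, as 10.5% of all genes did. Their median log2 fold change was 0.20, beside -0.004 over all tested genes, and 8 of the 9 had a positive sign. The 2 were chosen for naming after their values were seen: YSL2 and YSL3, transporters of metals bound to nicotianamine, stood at 5.30 ± 0.573 against 3.91 ± 0.243 RPKM (0.36 ± 0.10, adjusted p = 0.129) and at 13.9 ± 0.903 against 11.3 ± 0.188 RPKM (0.27 ± 0.10, adjusted p = 0.287).

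Likewise singled out after its values were seen, CITF1, a transcription factor of copper uptake in flowers, stayed under the filter. It measured 0.901, 0.908 and 0.791 RPKM in 35S:DVL8 and 0.308, 0.414 and 0.398 in WT, from 208 and 87 reads, and 0.575, 0.45 and 0.786 in dvl1-1D. The 35S:DVL8 values lay above those of all other groups, with 0.293 to 0.491 in the quintuple mutants, and no test was made in the filtered fit. In the fit with no filter, no gene of the list passed in 35S:DVL8.

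COPT2, which takes copper up across the plasma membrane, was low. It measured 4.96, 3.13 and 3.65 RPKM in 35S:DVL8, 3.27, 3.43 and 4.08 in dvl1-1D, and 2.63, 3.03 and 3.39 in WT. The groups overlapped, and the difference of 35S:DVL8 from WT was 0.28 ± 0.16 (adjusted p = 0.609). SPL7 itself stayed between 18.8 and 21.2 RPKM in all libraries (-0.04 ± 0.05 in 35S:DVL8 against WT, adjusted p = 0.854).

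Of 11 other targets of copper microRNAs, 9 passed the filter, and none passed in 35S:DVL8 by limma. Unadjusted p was under 0.05 for 4, all lower there, and the median log2 fold change was -0.12. ARPN had the smallest p: it measured 27.8, 27.8 and 30.4 RPKM in 35S:DVL8 and 54.6, 42.4 and 46.4 in WT (-0.71 ± 0.15, adjusted p = 0.0705), without overlap. The others, named like ARPN after their values were seen, were the laccases LAC4 (-0.25 ± 0.07, adjusted p = 0.142) and LAC2 (-0.36 ± 0.13, adjusted p = 0.285), and COX5B-1, a subunit of mitochondrial cytochrome oxidase (-0.08 ± 0.04, adjusted p = 0.461). ARPN passed in 35S:DVL8 with limma-voom (0.0405), array weights (0.0428) and only the libraries compared (0.045).

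**Figure D4:**
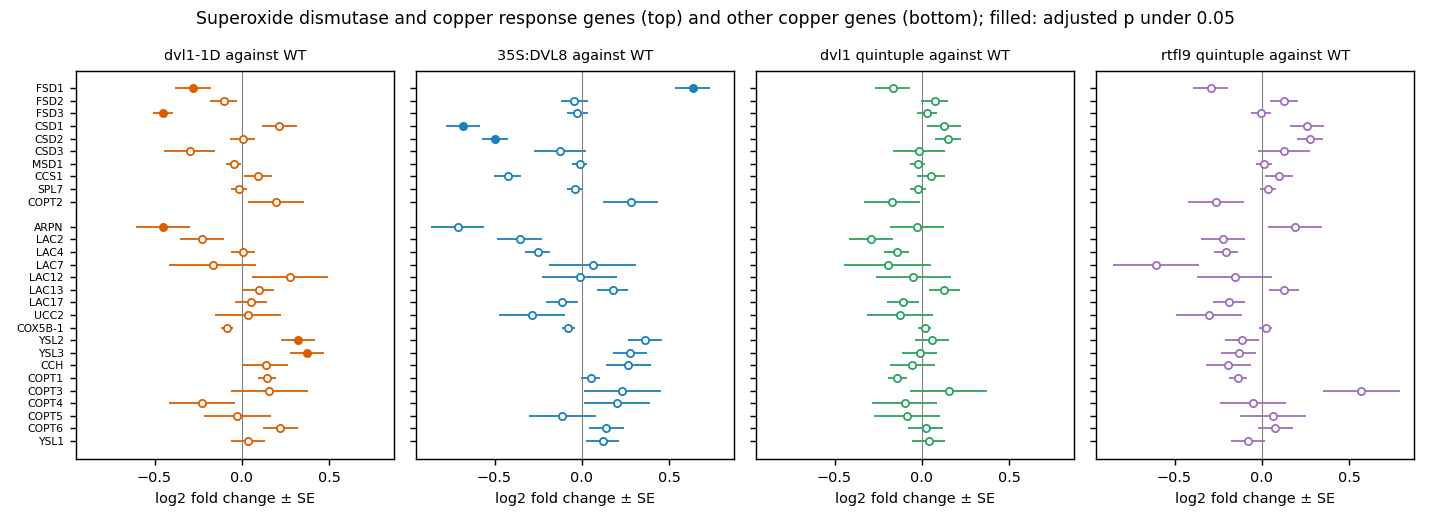
Log2 fold changes ± SE against WT (horizontal axes) of the 10 genes (upper block) and of 18 other copper genes (lower block) in the 4 lines; filled points have an adjusted p under 0.05. In 35S:DVL8 the filled points are FSD1 at 0.63, CSD1 at -0.68 and CSD2 at -0.50.

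The lists of copper delivery and copper proteins (18 genes tested), peroxide scavenging (24), iron and manganese supply (15) and plastid RNA polymerase associated proteins (12) had no gene passing in 35S:DVL8, by limma or by limma-voom. At an unadjusted p under 0.05 they had 2, 2, 3 and 0 genes. Among these was the nicotianamine synthase NAS1, at 4.51, 2.71 and 3.23 RPKM against 1.70, 2.13 and 1.69 in WT (0.64 ± 0.22, adjusted p = 0.257), named after its values were seen. FSD2 and FSD3 stood at 27.7 ± 2.09 and 59.7 ± 1.87 RPKM in 35S:DVL8, and 28.5 ± 0.148 and 60.8 ± 1.71 in WT.

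In dvl1-1D the picture was another one: FSD3 fell, and FSD1 was lower rather than higher. FSD3 measured 42.8, 46.9 and 43.0 RPKM in dvl1-1D and 62.0, 58.8 and 61.5 in WT. All other groups began at 57.3 RPKM, so that the dvl1-1D libraries stood apart. The log2 fold change was -0.45 ± 0.06 (adjusted p = 0.000103), and it passed in all 15 alternatives. In this comparison 6219 genes (30.8%) passed, 2837 of them lower (14%), and libraries did not overlap for 47% of genes, so that both were common there. FSD3 and FSD1 were the 2 that passed of the 10.

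FSD1 measured 280.0, 237 and 249 RPKM in dvl1-1D and overlapped with WT, with a log2 fold change of -0.28 ± 0.10 (adjusted p = 0.0482). It no longer passed without WT replicate 2 (0.197), WT replicate 3 (0.126), dvl1-1D replicate 2 (0.157) or dvl1-1D replicate 3 (0.112), and passed in 7 of 15 alternatives. CSD1 stood at 196 ± 23.6 RPKM (0.21 ± 0.10, adjusted p = 0.112) and CSD2 at 191 ± 16.6 RPKM (0.00 ± 0.07, adjusted p = 0.981). As higher, CSD1 passed in 2 of 15 alternatives, with array weights (0.0337) and without dvl1-1D replicate 3 (0.0235). CCS1 stood at 39.7 ± 4.22 RPKM (0.09 ± 0.08, adjusted p = 0.413). FSD2, the nucleoid partner of FSD3, measured 23.7, 25.9 and 30.2 RPKM and did not pass (-0.11 ± 0.08, adjusted p = 0.336).

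Genes listed with the plastid RNA polymerase associated proteins were also lower in dvl1-1D. Of the 12 tested, 10 fell (83.3%, beside the 30.8% of all genes that passed in either direction) and none rose. Their median log2 fold change was -0.26, beside 0.02 over all tested genes. The 12 include the chaperonin CPN20 and SVR4, neither of which is a numbered PAP. CPN20 is among the 10 that fell and SVR4 is not. PAP10, the thioredoxin of the complex, measured 29.5, 28.0 and 29.2 RPKM in dvl1-1D and 39.1, 41.5 and 45.0 in WT (-0.52 ± 0.06, adjusted p = 3.95e-05). PAP5, also known as HEMERA, measured 38.5, 43.1 and 42.2 against 59.1, 56.2 and 56.5 RPKM (-0.46 ± 0.05, adjusted p = 3.81e-05). PAP8 changed by -0.34 ± 0.04 (adjusted p = 4.36e-05) and PAP6, a fructokinase-like protein, by -0.36 ± 0.05 (adjusted p = 0.000274). The 10 include PAP7, named for this reason after its values were seen, which did not pass without WT replicates 1, 2 or 3 (0.0877, 0.055 and 0.139) or dvl1-1D replicates 1 or 3 (0.17 and 0.0728), or with no filter (0.0549). In each of the 3 other lines none of the 12 passed against WT, and none had an unadjusted p under 0.05.

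**Figure D5:**
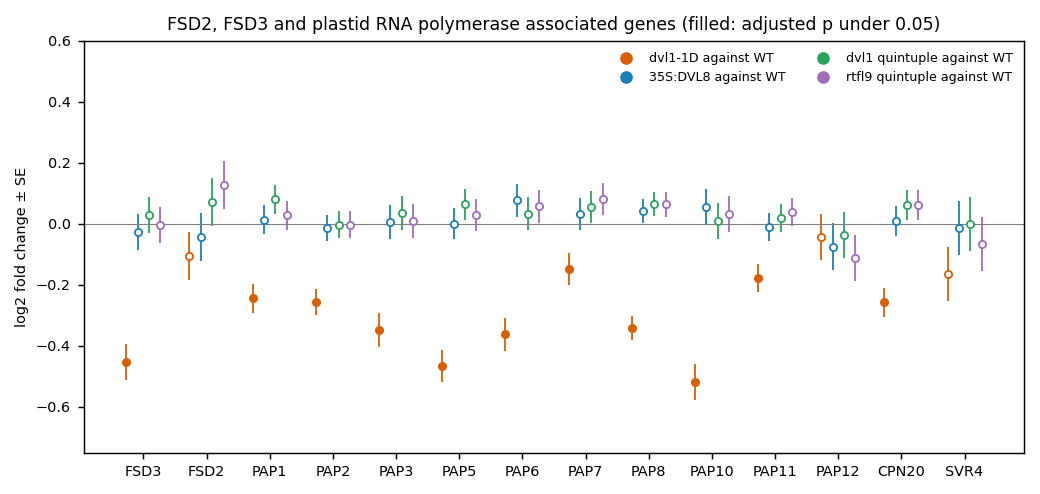
Log2 fold changes ± SE against WT (vertical axis) in the 4 lines. The horizontal axis gives FSD3, FSD2 and the 12 genes listed with the plastid RNA polymerase associated proteins, CPN20 and SVR4 among them. Filled points have an adjusted p under 0.05. FSD3 at -0.45 and 10 of the 12 genes are filled in dvl1-1D only.

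The summed level of 6 green tissue markers overlapped between dvl1-1D (15850 to 17240 RPKM) and WT (16250 to 18020). Of these markers, 1 rose (16.7%, beside 30.8% of all genes that passed) and none fell in dvl1-1D. It was LHCB2.1 of the light-harvesting antenna, at 0.24 ± 0.08 (adjusted p = 0.0413), which did not pass without WT replicate 1 (0.157), WT replicate 3 (0.081), dvl1-1D replicate 1 (0.0973) or dvl1-1D replicate 3 (0.117). It did not pass either with no filter (0.0927), median-of-ratios scaling (0.0913) or quantile normalization (0.0669).

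Some markers of other tissues also rose in dvl1-1D, and none fell. The shares passing were 25% of inflorescence, 28.6% of pollen and 12.5% of tapetum markers, each below the 30.8% of all tested genes. Of 8 inflorescence markers, AG, which specifies stamens and carpels, rose from 23.5 to 30.9 RPKM (0.37 ± 0.06, adjusted p = 0.00043), and STM of the meristem from 46.6 to 57.9 RPKM (0.31 ± 0.05, 0.000393). Of 7 pollen markers tested, TIP1;3 (0.65 ± 0.14, 0.00331) and PPME1 (0.36 ± 0.13, 0.0491) rose, PPME1 in 8 of 15 alternatives, and the pollen sum was 497 to 673 RPKM against 443.5 to 492. PPME1 did not pass without WT replicates 1, 2 or 3 (0.134, 0.0837 and 0.0919) or dvl1-1D replicate 2 (0.22). Of 8 tapetum markers GRP17 rose from 455 to 768 RPKM (0.75 ± 0.10, 0.00015). Without it the other 7 summed to 135 to 204 RPKM against 167 to 201, and 6 of them had a negative sign. The part of these markers in the changes of FSD3 and of the lists described here was not tested.

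Enzymes that remove the product of SODs, hydrogen peroxide, passed in dvl1-1D about as often as genes in general. Of 24 tested, 7 fell and 2 rose (37.5%, beside 30.8% of all genes), with a median log2 fold change of -0.06. Those with the smallest adjusted p were SAPX, a stromal ascorbate peroxidase (-0.48 ± 0.05, adjusted p = 3.42e-05), the peroxiredoxins PRXIIE (-0.43 ± 0.06, 9.84e-05) and 2CPB (-0.37 ± 0.05, 0.000136), and MDAR6, which regenerates ascorbate (-0.29 ± 0.05, 0.00109). The 2 that rose, named for that after the fact, were GPX2 (0.23 ± 0.04, adjusted p = 0.00167) and GR1, a glutathione reductase (0.17 ± 0.05, 0.018). GR1 did not pass without WT replicate 2 (0.065), WT replicate 3 (0.0576) or dvl1-1D replicate 3 (0.078), or with median-of-ratios scaling (0.0711), nor did PRXQ, another peroxiredoxin among those that fell, without WT replicate 3 (0.0521), dvl1-1D replicate 1 (0.0719) or dvl1-1D replicate 2 (0.0518). The ascorbate peroxidase APX1, also among those that fell, did not pass with quantile normalization (0.128). PRXQ and APX1 were named for these losses after their values were seen.

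Genes of metal handling passed in dvl1-1D no more often than genes in general, or nearly so. Among 18 copper delivery genes, 3 rose and 1 fell (22.2%, beside 30.8% of all genes): HMA6, a copper pump of the chloroplast envelope, measured 14.8, 15.2 and 15.1 RPKM against 20.7, 21.2 and 21.6 in WT (-0.47 ± 0.05, adjusted p = 4.78e-05). HMA7, the copper pump that supplies ethylene receptors, rose by 0.25 ± 0.04 (adjusted p = 0.000306), COX11, a mitochondrial copper chaperone, by 0.17 ± 0.04 (0.00594) and HMA1, another envelope pump, by 0.18 ± 0.05 (0.00833). Of the 9 copper deficiency genes, YSL3 (0.37 ± 0.10, adjusted p = 0.0106) and YSL2 (0.32 ± 0.10, 0.0222) rose and none fell (22.2%). YSL2 did not pass without WT replicate 1 (0.0793), WT replicate 3 (0.0532) or dvl1-1D replicate 3 (0.0987).

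Of the microRNA targets, ARPN fell in dvl1-1D, with 29.96, 38.6 and 35.4 RPKM (-0.45 ± 0.15, adjusted p = 0.0381), 1 of 9 (11.1%), and no other target passed. It did not pass without WT replicate 1 (0.147), WT replicate 3 (0.074), dvl1-1D replicate 1 (0.146) or dvl1-1D replicate 3 (0.0684). With no filter, ARPN did not pass (0.0705) and UCC1, a uclacyanin under the filter otherwise, was higher (0.26 ± 0.09, adjusted p = 0.0475), both named for this after their values were seen. COX5B-1 was lower with median-of-ratios scaling (0.0325).

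Among 15 iron and manganese genes, 4 fell and 1 rose (33.3%, beside 30.8% of all genes). The plastid iron store FER3 fell from 69.0 ± 2.60 to 46.6 ± 6.03 RPKM (-0.57 ± 0.07, adjusted p = 0.000108). MTM1, a mitochondrial carrier linked in yeast to manganese SOD, changed by -0.23 ± 0.06 (0.0113), the nicotianamine synthase NAS1 by -0.78 ± 0.22 (0.0156) and the ferritin FER4 by -0.29 ± 0.09 (0.0199).

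The gene that rose was BTS, a regulator of the iron response, by 0.18 ± 0.06 (adjusted p = 0.0276), named after its value was seen. The call of NAS1 was lost without WT replicate 2 (0.0578) or dvl1-1D replicate 2 (0.0536), and that of FER4 without WT replicate 1 (0.0864) or dvl1-1D replicate 3 (0.0598), or with only the libraries compared (0.0563). BTS did not pass without any 1 of WT replicates 1, 2 and 3 (0.0654, 0.0621 and 0.07) or dvl1-1D replicate 3 (0.0863), or with median-of-ratios scaling (0.0801), quantile normalization (0.0601) or only the libraries compared (0.0867).

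Set directly against each other, the overexpression lines differed in 5 of the 10 genes, where 32.4% of all tested genes passed. FSD1 was lower in dvl1-1D than in 35S:DVL8 (-0.91 ± 0.10, adjusted p = 2.97e-05), and so was FSD3 (-0.43 ± 0.06, 0.000156). CSD1 (0.90 ± 0.10, 2.74e-05), CSD2 (0.50 ± 0.07, 0.000255) and CCS1 (0.52 ± 0.08, 0.000317) were higher in dvl1-1D. The libraries of the lines did not overlap for any of these 5, as for 44.1% of all genes, and all 5 passed in each of the 15 alternatives.

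In the quintuple mutants none of the 10 genes passed against WT. In the rtfl9 quintuple, 1.23% of all genes passed, and FSD1, CSD1 and CSD2 had an unadjusted p under 0.05, as did 15.8% of genes. FSD1 measured 237, 250.3 and 272 RPKM there (-0.29 ± 0.10, adjusted p = 0.183), overlapping with WT. CSD1 measured 210.3, 199.5 and 193 RPKM (0.26 ± 0.10, adjusted p = 0.221), and CSD2 225, 228 and 239 RPKM (0.27 ± 0.07, adjusted p = 0.0953). Every rtfl9 quintuple library lay above every WT library for CSD1, CSD2 and FSD2, and below for COPT2, as for 21.1% of genes in either direction. With array weights FSD1 and CSD2 passed (0.0496 and 0.0303).

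Among the 6 lists of copper, peroxide, iron and plastid genes, only HMA7 passed in the rtfl9 quintuple, at 22.0 ± 0.793 RPKM against 25.4 ± 0.330 (-0.20 ± 0.04, adjusted p = 0.0294). It did not pass without WT replicates 1, 2 or 3 (0.0598, 0.153 and 0.125) or rtfl9 quintuple replicates 1 or 4 (0.0945 and 0.0978), or with only the libraries compared (0.0909). Of the 7 pollen markers tested, 2 fell: BUPS1 stood at 14.02 against 25.6 RPKM in WT (-0.82 ± 0.16, adjusted p = 0.0302) and ANX2 at 5.47 against 10.2 (-0.78 ± 0.18, 0.0493). BUPS1 passed in 7 and ANX2 in 6 of 15 alternatives, and neither passed when any single library of WT or the rtfl9 quintuple was left out (0.0562 to 0.153 and 0.0846 to 0.223). VGD1, named after its values were seen, did not pass as fitted (0.0523). It was lower with limma-voom (0.0296), array weights (0.00704), only the libraries compared (0.00264), median-of-ratios scaling (0.0457) and quantile normalization (0.0489). It did not pass with pseudocount 0.1, no filter or a replicate block. Of the 7 markers, 5 had a negative and 2 a positive sign. The pollen sum was 328 to 382 RPKM against 443.5 to 492, and the part of pollen in the values of the 10 genes was not tested.

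In the dvl1 quintuple, FSD1 measured 248.5, 308 and 273 RPKM (-0.17 ± 0.10, adjusted p = 0.727), CSD1 199, 166 and 186 RPKM (0.12 ± 0.10, 0.802) and CSD2 213, 191 and 230.4 RPKM (0.15 ± 0.07, 0.672). All 3 overlapped with WT; of the 10 genes FSD2 alone did not (16.5% of all genes), at 28.8 to 32.5 against 28.4 to 28.7 RPKM. None of the 10 genes had an unadjusted p under 0.05, as 7.75% of genes did, and none passed by limma-voom; 6 genes (0.0297%) passed in the whole table. The pollen sum was 368 to 418 RPKM in the dvl1 quintuple against 443.5 to 492 in WT. Of the 7 pollen markers tested none passed as fitted, and 4 had an unadjusted p under 0.05. Their signs were negative for 6 and positive for 1. The 7 tapetum markers other than GRP17 summed to 234 to 257 RPKM against 167 to 201, and none passed as fitted. The part of these markers in the values of the 10 genes was not tested. Between the quintuple mutants none of the 10 genes passed by limma, neither adjusted nor at an unadjusted p under 0.05 (4.39% of genes), with 3 genes (0.0148%) passing in all. Their difference, dvl1 quintuple less rtfl9 quintuple, was 0.12 ± 0.10 for FSD1, -0.14 ± 0.10 for CSD1 and -0.13 ± 0.07 for CSD2.

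Taking both overexpression lines against both mutants, 7 of the 10 genes passed, with 32% passing in all. For FSD1 (0.41 ± 0.07, adjusted p = 0.00089), CSD1 (-0.43 ± 0.07, 0.000564), CSD2 (-0.46 ± 0.05, 5.66e-05) and CCS1 (-0.24 ± 0.06, 0.00508) the mean joined unlike lines, as the direct comparison showed. FSD3 (-0.25 ± 0.04, 0.000662) was likewise low in dvl1-1D and not in 35S:DVL8.

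COPT2 was higher in the overexpression lines together, at 3.13 to 4.96 RPKM against 1.72 to 3.10 in the mutants (0.45 ± 0.11, adjusted p = 0.00814). Its groups did not overlap, as for 4.41% of genes, and it passed in 20 of 21 alternatives. FSD2 was lower (-0.17 ± 0.06, 0.0287), but did not pass without dvl1-1D replicate 1 (0.0701) or 2 (0.0567), 35S:DVL8 replicate 1 (0.0572) or 2 (0.0622), dvl1 quintuple replicate 4 (0.0749) or rtfl9 quintuple replicate 4 (0.0641). COPT2 and FSD1 were the 2 higher of the 7, and COPT2 did not pass with the replicate numbers as a block (0.0611).

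In this comparison, where 32% of all tested genes passed, 4 of the 9 copper deficiency genes rose and none fell. They were COPT1, a copper transporter (0.24 ± 0.04, adjusted p = 0.000546), YSL3 (0.40 ± 0.07, 0.000876), YSL2 (0.37 ± 0.07, 0.00138) and CCH, a copper chaperone (0.32 ± 0.09, 0.0151). Of the 9 microRNA targets tested, ARPN (-0.66 ± 0.11, 0.000614) and COX5B-1 (-0.10 ± 0.02, 0.00772) fell and none rose. These 6 were named after their values were seen, and fits with libraries left out are not given for them. Other lists passed genes here too. Of 12 plastid genes, 10 were lower. Higher and lower were 5 and 5 of 24 peroxide genes, 5 and 2 of 18 copper delivery genes, 1 and 3 of 15 iron and manganese genes, and 1 and 4 of 8 tapetum markers. Of the other markers, 2 of 7 for pollen, 2 of 8 for inflorescence and 2 of 6 for green tissue were higher and none was lower. CCH measured 219, 178 and 219 RPKM in 35S:DVL8 and 173, 185 and 203 in dvl1-1D. It measured 167, 179.5 and 145 in the dvl1 quintuple and 174, 158 and 119 in the rtfl9 quintuple, so single libraries overlapped.

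MSD1 of the mitochondria was the steadiest of the SODs, at 132 to 150.2 RPKM in all 15 libraries, with group means from 137 to 143 that lay within the spread of the libraries. CSD3 of the peroxisome had group means of 9.32 ± 2.09 RPKM in the rtfl9 quintuple, 8.35 ± 0.663 in WT, 8.25 ± 0.826 in the dvl1 quintuple, 7.62 ± 1.44 in 35S:DVL8 and 6.63 ± 1.07 in dvl1-1D. Neighbours in this order overlapped, and CSD3 passed in none of the 7 comparisons as fitted. Nearest was the overexpression lines against the quintuple mutants (-0.27 ± 0.10, adjusted p = 0.0642), where it passed with quantile normalization (0.0498) and without dvl1-1D replicate 1 (0.0408), 35S:DVL8 replicate 3 (0.0263) or rtfl9 quintuple replicate 2 (0.0178). Its values are uncertain, since counting ignored strand and its gene overlaps genes on the other strand. It shares 142 bases with AT5G18110, at 32.9 to 44.3 RPKM, and 405 bases with AT5G02875, at 0 to 0.74 RPKM. CSD1 shares 211 bases with AT1G08840, which stood at 3.96 to 5.62 RPKM, far below CSD1. How reads in shared bases were counted was not examined.

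For CSD1 and FSD1, the genes with the widest range of group means, the 5 genes most alike in pattern over the 15 libraries were found by the root mean square difference of centred log2 values. For CSD1 the nearest was CSD2 (0.15), then CCS1 (0.16), AT5G39580 (0.19), PAB6, a poly(A)-binding protein (0.22), and AT2G43610 (0.22). For FSD1 they were AK3, an aspartate kinase (0.19), BCAT4, an aminotransferase of glucosinolate synthesis (0.21), AT3G06645 (0.22), TPPI, a trehalose phosphatase (0.22), and CRK18, a receptor-like kinase (0.22). AK3 stood at 5.56 RPKM in 35S:DVL8 and 4.04 in WT, and AT5G39580 at 0.212 and 0.987 RPKM.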

How the data were processed

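The authors deposited RPKM values per gene, with 1 column per library. The submitters' processing notes name HTSeq, HISAT2 and cutadapt, and the labels describe the counting as unstranded. The authors' genome build was not given in sources used here. Per the series text, the authors left out 5 of 20 samples as outliers, 1 in each group, which can narrow the spread within groups; those samples were not analysed here. Read counts, recovered from the RPKM values as whole numbers (tolerance 0.005) for 100% of 29911 detected genes, supplied the depths.

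Values of log2(RPKM + 1) of all 15 libraries were fitted in limma 3.58.1 (R 4.3.3), with 1 mean per group and the variance prior following expression. The 20223 genes with at least 1 RPKM in at least 3 libraries were tested, two-sided, in 7 comparisons, with Benjamini-Hochberg adjustment over all of them and a threshold of 0.05. Log2 fold changes are on that scale, which understates changes of low genes. Comparisons against WT share the WT libraries. The script was tested on simulated data.

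The 10 genes and all gene lists were chosen with earlier results of these data known. From each list, at most the 4 genes with the smallest adjusted p among those passing against WT were named, with exceptions stated. Sequences and names came from RefSeq TAIR10.1, matched by locus identifier (37051 of 37336). Precision is limited by 3 libraries per group. The p-values weigh a difference against the spread within groups, estimated over all 15 libraries and moderated over all tested genes. Alternatives were pseudocount 0.1, no filter, median-of-ratios scaling, quantile normalization, only the libraries compared, a replicate block, array weights, limma-voom on recovered reads, and libraries left out.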

Additional observations from a re-analysis of the deposited data

How the results depend on the processing

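Of 1110 alternative values for the 10 genes in 7 comparisons, 1070 kept their side of the threshold, 29 lost a call and 11 gained one. The sign changed in 38 values of 20 results, none of them past the threshold (lowest adjusted p 0.554). Scaling moved the median of all genes little. Genes passing in 35S:DVL8 against WT numbered 28 and became 306 with array weights, 241 with limma-voom, 49 with both rtfl9 quintuple replicate 4 and 35S:DVL8 replicate 2 left out, and 7 to 289 with single libraries left out; of the 10 genes, 3 passed, and 0 to 3 with single libraries left out (0 without WT replicate 1 or 35S:DVL8 replicate 3, 1 without WT replicate 3). In dvl1-1D, 2 of the 10 passed, and 1 with no filter, quantile normalization or only the libraries compared, and 1 to 2 with single libraries left out. In the dvl1 quintuple, 6 genes passed, but 12 with no filter, 152 with only the libraries compared, 18 with array weights and 152 without both of those libraries. In the rtfl9 quintuple, 249 passed, but 57 with no filter, 668 with array weights (2 of the 10 genes in place of 0), 332 without both of those libraries and 8 to 78 with single libraries left out. Between the quintuple mutants, 3 passed, but 5 with quantile normalization or array weights, 0 with only the libraries compared, 1 without both of those libraries and 1 to 6 with single libraries left out. The causes were not tested.

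Same-numbered libraries did not deviate together in every pair: correlations ran from -0.255 (WT and 35S:DVL8 replicates 1) to 0.381 (replicates 4 of the quintuple mutants), with 0.143 for WT and rtfl9 quintuple replicates 2, so the numbers were not taken to pair the samples. With the replicate block, 13 genes passed in 35S:DVL8, 9 in the rtfl9 quintuple and 1 between the quintuple mutants. Of the 10 genes, 1 passed in dvl1-1D (FSD3), and FSD1 did not pass in 35S:DVL8 (adjusted p = 0.0635).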
